A study of Drosophila melanogaster with 24 samples.

Results

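The constant 30 lines of Drosophila melanogaster were compared with unselected control lines in the transcripts of whole adult females, on 6 of the 24 arrays of a series of 8 groups with 3 lines each. The 3 constant 30 arrays and the 3 control arrays were chosen by their titles. All 9023 probe sets with a log2 value above 4 on at least 3 of the 24 arrays entered the comparison, apart from the array maker's controls, and they named 7438 genes. The other 6 groups were selected for longevity or for surviving cold, heat, knock-down, desiccation or starvation. Each array was hybridised with labelled RNA from 1 line. The labels describe the constant 30 flies as kept at 30 degrees and the control flies as not selected. The length of that exposure, the number of generations, the age of the females and the temperature of the sampled females themselves are not stated in what was used here. Females of 1 vial were homogenised together for each sample, and RNA was primed from the poly-A tail. The labels call the 3 lines of a group biological replicates. Each p-value rests on the spread among lines within groups, pooled over all 8 groups.

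Warmth near the upper end of the range in which fruit flies can be reared affects feeding, digestion, fat storage, egg laying and immunity in this species. Heat shock proteins are chaperones whose transcripts rise within a short time after a sudden heat stress, while flies that live in steady warmth can differ in other genes. The gut secretes lipases, carboxypeptidases and trypsin-like proteases, and the fat body secretes antimicrobial peptides under the Toll and Imd signalling pathways.

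The 6 arrays were alike in their general properties. Log2 medians were 5.46 to 5.54, and each array had 8610 to 8838 probe sets above 4. Correlations across probe sets were 0.986 to 0.990 among constant 30 arrays, 0.992 to 0.995 among control arrays and 0.984 to 0.994 between the groups. Yolk and chorion transcripts, which mark adult females with developing eggs, were at 10.8 to 14.8 for 9 probe sets on all 6 arrays. The lists of testis markers and of male accessory gland and dosage compensation genes held 44 probe sets. Of these, 34 were under 4 on all 6 arrays, and 6 more reached 4 but stayed at or below 4.66. The other 4 were well above that level, namely twe at 8.81 to 9.15, one of the 2 probe sets of bol at 7.33 to 7.83 and both of alphaTub84D at 10.1 to 11.7. The mean difference between 3' and 5' probe sets of actin, eIF-4a and GAPDH, which reflects RNA quality, came to 1.66, 1.85 and 1.72 for the constant 30 lines and to 1.74, 1.69 and 1.82 for the control lines.

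No gene passed the test for a difference between constant 30 and control females. Among the largest differences without overlap between the groups, the lipase genes CG6295 and CG17192 were at 1.02 and 1.03 on the log2 scale and the antifungal peptide gene Drs at 0.67, while CG13159 was at -0.90 and the glycogenin gene Gyg at -0.60. The test was limma's moderated test with Benjamini and Hochberg adjustment over all probe sets, and a probe set counted as called at an adjusted p under 0.05. Limma called 0 of 9023 probe sets (0%), and the smallest adjusted p was 0.359. At an unadjusted p under 0.05 there were 630, of which 308 were higher in constant 30 (3.41% of all probe sets) and 322 were lower (3.57%). The median difference was -0.024 on the log2 scale, and the 5th and 95th percentiles were -0.20 and 0.27. The 3 constant 30 values lay above all 3 control values for 340 probe sets (3.77%) and below them for 845 (9.36%). These splits depended on the scale of the arrays. With each array centred on its median 241 lay higher and 543 lay lower past that p, and 239 and 971 did so without overlap. With quantile normalization 346 lay higher and 355 lower past that p, and 386 and 748 did so without overlap. Differences of at least 0.5 in size were measured for 129 probe sets. Leaving out 1 array moved the difference of 28 of 80 named genes by over 1.5 times in size and turned the sign of 0. It moved the medians of all 40 gene lists that far, and 15 of them changed sign.

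**Figure D1:**
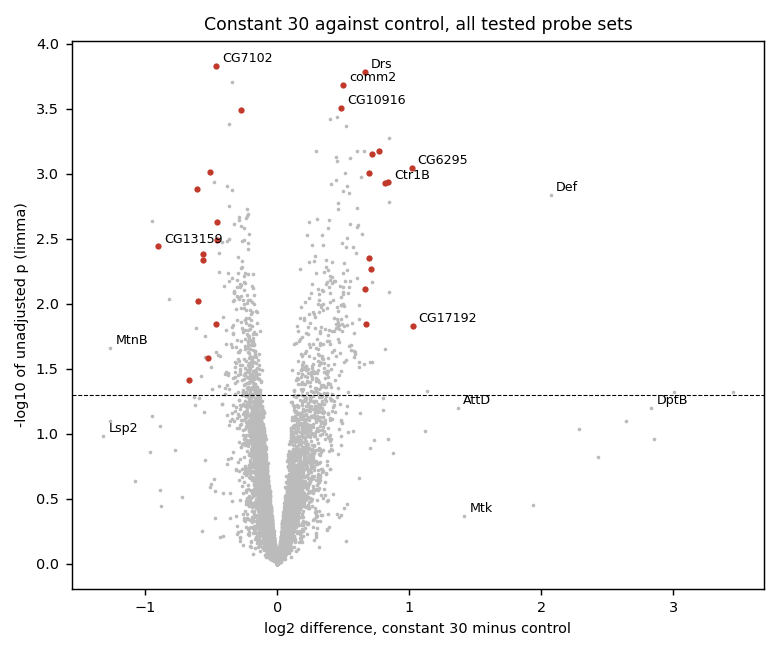
Log2 difference between constant 30 and control (x axis) against the negative log10 of limma's unadjusted p (y axis) for the 9023 tested probe sets, with the genes named by size or p in red and the dashed line at 0.05. None of the 9023 points had an adjusted p under 0.05, and most differences lay between -0.20 and 0.27.

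The largest non-overlapping differences belonged to a pair of lipase genes. CG6295 and CG17192 belong to the pancreatic-type lipase family, and their genes are next to each other on chromosome 3R in the gene table. CG6295 was at 8.23, 8.15 and 8.52 on control replicates 1, 2 and 3 and at 9.47, 9.47 and 9.03 on constant 30 replicates 1, 2 and 3. The groups did not overlap, and the constant 30 mean was 1.02 ± 0.26 higher on the log2 scale (SE, n = 3 lines per group), 2.03-fold (adjusted p = 0.359). CG17192 was at 7.64, 6.07 and 6.71 in control and at 7.98, 7.82 and 7.71 in constant 30. Here the control lines were spread widely, with replicate 1 just below the lowest constant 30 line, and the difference was 1.03 ± 0.38 (adjusted p = 0.566). Without control replicate 2 this difference was 0.66, and without control replicate 1 it was 1.44. Lipase genes beside the pair did not share its difference. CG6296 was 0.36 higher (adjusted p = 0.794), while CG6283, CG6277 and CG6271 were at -0.15, -0.16 and -0.091.

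A pair of zinc carboxypeptidase genes on chromosome 3L, CG8560 and CG8562, had differences of similar size. CG8560 was at 8.15, 7.66 and 7.75 in control and at 8.60, 8.57 and 8.50 in constant 30, a difference of 0.70 ± 0.18 (adjusted p = 0.359). CG8562 was at 7.18, 7.13 and 7.16 in control and at 7.86, 8.0 and 7.61 in constant 30, a difference of 0.67 ± 0.25 (adjusted p = 0.566). All constant 30 lines lay above all control lines for both genes. CG18417, which lies between them, was at -0.22 (adjusted p = 0.842), with constant 30 replicates 1 and 2 below control and replicate 3 above it.

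CG8773, a predicted aminopeptidase gene, was at 4.93, 4.79 and 5.06 in control and at 6.0, 5.55 and 5.54 in constant 30, a difference of 0.77 ± 0.19 (adjusted p = 0.359). The groups were separated by more than their own ranges. CG9897, of the trypsin-like serine protease family, was 0.72 ± 0.18 higher (adjusted p = 0.359) and its groups did not overlap. Without control replicate 3, the control line nearest to the constant 30 lines, CG9897 was 0.89 higher and called (adjusted p = 0.0405). Leaving out this nearest line widens the gap, and without control replicate 1 the difference was 0.59. The fixed list of gut serine proteases held 26 tested genes, of which 22 had differences above 0 and 2 had an unadjusted p under 0.05, both higher. Over all 7438 genes, 42.6% had differences above 0 and 3.39% had such a p and were higher. Jon99Fii was at 0.45 (adjusted p = 0.513) and thetaTry, a trypsin gene, at 0.62 (adjusted p = 0.659). The value of thetaTry was 0.35 without constant 30 replicate 3 and 0.81 without constant 30 replicate 1. The list median was 0.12 (0.20 without control replicate 3 and 0.081 without control replicate 2) against -0.021 for all genes, and 0.016 against the mean of the other 6 regimes. The maltase and amylase list lay the other way, with 9 of 13 genes below 0 and a median of -0.073. In these whole-body samples, fewer cells of a type and less RNA per cell cannot be told apart.

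Ctr1B encodes a copper importer and was at 6.17, 5.98 and 6.77 in control and at 6.91, 7.33 and 7.20 in constant 30, a difference of 0.84 ± 0.22 (adjusted p = 0.359). Control replicate 3 lay close below the constant 30 lines. Without it Ctr1B was 1.07 higher and called (adjusted p = 0.0404), and without control replicate 2 it was 0.68 higher. CG17752 is predicted to encode an organic ion transporter and was at 5.57, 5.79 and 5.79 in control and at 6.37, 6.66 and 6.56 in constant 30, a difference of 0.81 ± 0.21 (adjusted p = 0.359). The groups were clearly separated. The list of metallothioneins and copper transport genes, which holds Ctr1B, had 4 members above and 3 below 0. Npc2d, of a family of sterol-binding proteins, was 0.71 ± 0.23 higher (adjusted p = 0.496) without overlap. Among detoxification genes, GstE5, a glutathione S-transferase gene, was 0.69 ± 0.22 higher (adjusted p = 0.475), and Cyp6g1, a cytochrome P450 gene known for insecticide resistance, was 0.35 ± 0.10 higher (adjusted p = 0.428). The medians of both lists were near 0. The glutathione S-transferase list had a median of 0.017 over 26 tested genes, with 2 members higher past an unadjusted p of 0.05 and 0 lower. The P450 list had a median of 0.024 over 58, with 4 higher and 2 lower past that p. Over all genes 3.39% were higher and 3.16% lower past that p. CG13077 was the last of the 12 largest, at 0.67, but constant 30 replicate 3 alone was at 5.41 while replicates 1 and 2 were at 4.19 and 4.02. Without constant 30 replicate 3 its difference was 0.23, and its control values were 3.72 to 3.95, below the filter of 4.

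**Figure D2:**
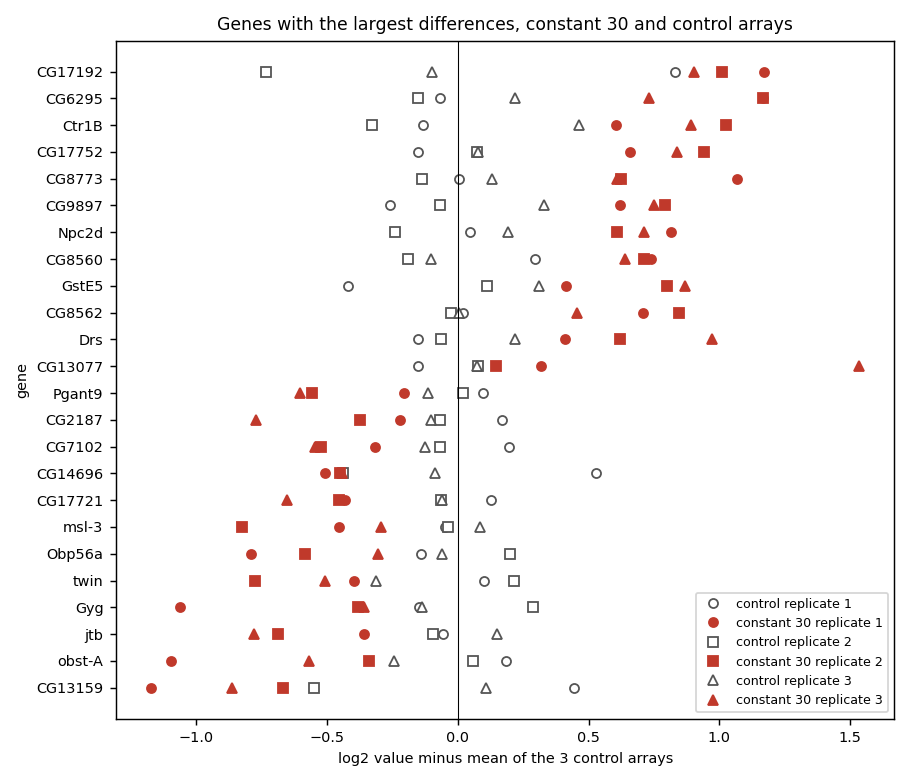
Log2 value of each of the 6 arrays minus the mean of the 3 control arrays (x axis) for the 12 genes with the largest higher and the 12 with the largest lower differences (y axis), red for constant 30 and open symbols for control, with circles, squares and triangles for replicates 1, 2 and 3. The genes were chosen for groups that do not overlap, and the mean differences ran from 1.03 for CG17192 to -0.90 for CG13159.

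Among immune genes, Drs and Def lay higher at an unadjusted p under 0.05. Drs encodes drosomycin, an antifungal peptide under Toll signalling, and was at 11.07, 11.16 and 11.44 in control and at 11.64, 11.85 and 12.20 in constant 30. All constant 30 lines lay above all control lines, by 0.67 ± 0.14 in the mean (adjusted p = 0.359). Without control replicate 3 the difference was 0.78 and called (adjusted p = 0.0378), and without constant 30 replicate 3 it was 0.52. Def encodes defensin, which acts on bacteria, and was at 5.09, 5.04 and 5.58 in control and at 5.55, 7.20 and 9.16 in constant 30. Constant 30 replicate 1 was within the control range and the other lines were far above it. The difference was 2.07 ± 0.56 (adjusted p = 0.363), it was 2.95 and called without constant 30 replicate 1 (adjusted p = 0.0188), and it was 1.14 without constant 30 replicate 3.

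Further immune genes differed between the constant 30 lines themselves. The next 4 genes were chosen after their values were seen. DptB, a diptericin gene, was at 5.45, 6.33 and 4.76 in control and at 8.35, 4.73 and 11.96 in constant 30, a difference of 2.83 ± 1.44 (adjusted p = 0.725). Mtk, which encodes metchnikowin, was at 6.68, 8.47 and 6.38 in control and at 8.49, 4.86 and 12.42 in constant 30, a difference of 1.41 ± 1.76 (adjusted p = 0.869). In both genes constant 30 replicate 3 was the highest of the 6 arrays and constant 30 replicate 2 was the lowest. AttD, an attacin gene, was at 3.55, 3.38 and 3.45 in control and at 3.36, 3.36 and 7.76 in constant 30, so that replicate 3 alone set the difference of 1.37 ± 0.70 (adjusted p = 0.725). PGRP-SB1, a peptidoglycan recognition protein gene, was at 5.95, 6.69 and 6.01 in control and at 7.76, 5.20 and 9.04 in constant 30, in the same order of lines as DptB. Constant 30 replicate 3 also stood apart in probe sets that the annotation leaves unnamed. Of 15 probe sets at least 1 higher in constant 30, 13 had their highest value on that array, and the 7 without a gene name were at 9.99 to 12.1 there, at 2.58 to 8.50 on constant 30 replicate 1, at 2.37 to 5.35 on replicate 2 and at 2.17 to 7.01 in control.

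The list of antimicrobial peptides held 13 tested genes of 15 on the array. Differences were above 0 for 11 of them, and 2 had an unadjusted p under 0.05, both higher. The shares over all genes were 42.6% above 0 and 3.39% higher at such a p. The list median was 0.30, it was 0.27 without constant 30 replicate 3, and it was 0.013 without control replicate 1. The mean log2 value of the list was 7.22, 7.80 and 7.47 in control and 8.07, 7.38 and 9.11 in constant 30, against 7.10 to 8.53 on the 18 arrays of the other regimes. The groups overlapped, and constant 30 replicate 3 was above every other array of the 24 in this mean. BomT2, a bomanin gene of the Toll pathway, was 0.48 ± 0.28 higher without overlap (adjusted p = 0.732), and the other 6 bomanin genes lay between -0.28 and 0.30. The list of recognition proteins and Toll and Imd signalling genes had a median of 0.014 over 26 genes, with 2 lower and 0 higher members past an unadjusted p of 0.05. These were imd, the adaptor gene of the Imd pathway, and pll, the kinase gene pelle of the Toll pathway, at -0.19 (adjusted p = 0.528) and -0.26 (adjusted p = 0.712).

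**Figure D3:**
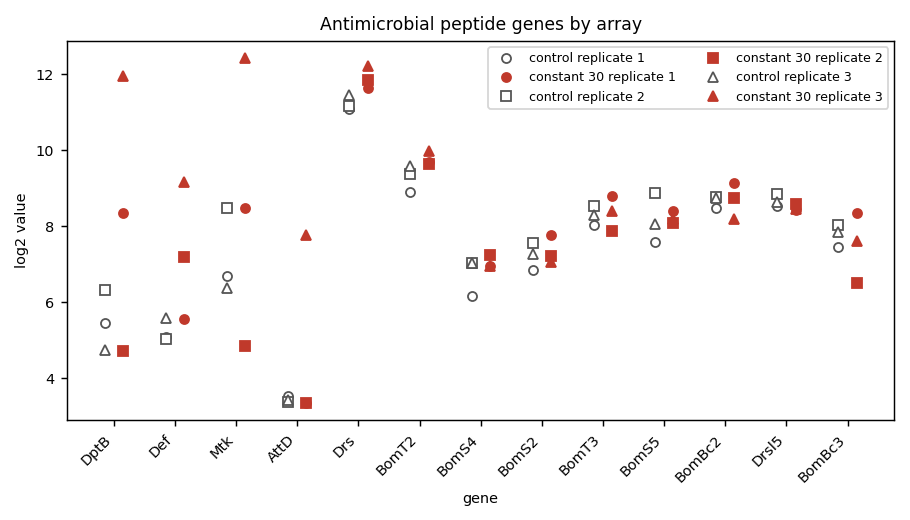
Log2 value (y axis) of each of the 13 tested antimicrobial peptide genes (x axis) on the 3 control arrays (open) and the 3 constant 30 arrays (red), with circles, squares and triangles for replicates 1, 2 and 3. In DptB and Mtk constant 30 replicate 3 was at 11.96 and 12.42 and replicate 2 at 4.73 and 4.86, while all constant 30 points of Drs lay above its control points.

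CG13159 had the largest lower difference without overlap. It was at 5.46, 4.46 and 5.12 in control and at 3.84, 4.35 and 4.15 in constant 30, a difference of -0.90 ± 0.27 (adjusted p = 0.428). Control replicate 2 was close to the constant 30 lines, which were near the filter of 4. Gyg encodes glycogenin, the protein on which glycogen chains start, and was at 7.68, 8.11 and 7.69 in control and at 6.77, 7.45 and 7.47 in constant 30, a difference of -0.60 ± 0.21 (adjusted p = 0.509). Constant 30 replicate 1 was the lowest line, and without it the difference was -0.37. AGBE, the glycogen branching enzyme gene, was at 7.85, 8.0 and 7.91 in control and at 7.68, 7.57 and 7.48 in constant 30, a difference of -0.34 ± 0.091 (adjusted p = 0.359). No constant 30 line reached the control range. AGBE was the 1 member of 9 tested in the list of trehalose and glycogen metabolism with an unadjusted p under 0.05, and the list median was -0.076 (-0.027 without constant 30 replicate 3). Gyg was not a member of this list.

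Obp56a, an odorant binding protein gene, was at 7.29, 7.63 and 7.37 in control and at 6.64, 6.84 and 7.12 in constant 30, a difference of -0.56 ± 0.17 (adjusted p = 0.478). The groups did not overlap, and 19 of the other 21 arrays were above the highest constant 30 line. Obp18a of the same family lay the other way at 0.46 (adjusted p = 0.566), and the odorant binding protein list had a median of 0.0044 over 17 tested genes, with 9 above and 8 below 0. CG17721 was at 7.12, 6.93 and 6.93 in control and at 6.56, 6.54 and 6.34 in constant 30, a difference of -0.51 ± 0.13 (adjusted p = 0.359). The gap between the groups was larger than the range of either group. CG7102, with the smallest unadjusted p of all single-gene probe sets, was at 4.96, 4.70 and 4.64 in control and at 4.45, 4.24 and 4.22 in constant 30, a difference of -0.46 ± 0.098 (adjusted p = 0.359). Its other probe set was at -0.23 (adjusted p = 0.399). Without control replicate 3 the first was at -0.52 and called (adjusted p = 0.0404), and without control replicate 1 it was at -0.36.

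The remaining genes among the 12 largest lower differences were obst-A, jtb, twin, msl-3, CG14696, CG2187 and Pgant9. Their differences ran from -0.67 for obst-A, a chitin-binding protein gene, to -0.46 for Pgant9, a glycosyltransferase gene. CG14696, at -0.47, was at -0.20 without control replicate 1, and CG2187, at -0.46, was at -0.30 without constant 30 replicate 3. The constant 30 values of CG14696 were 3.81 to 3.88, below the filter of 4. The twin gene, whose product is the CCR4 deadenylase that shortens poly-A tails, was at -0.56 ± 0.17 (adjusted p = 0.463), and its other probe set was at -0.40 (adjusted p = 0.671). The msl-3 gene, a member of the dosage compensation complex that acts in males, was at -0.53 ± 0.22 (adjusted p = 0.649). For obst-A the other probe set was at 0.082 (adjusted p = 0.957), so its probe sets disagreed, and those of Pgant9 were at -0.13 and -0.24 (adjusted p = 0.775 and 0.777). The other genes with the smallest p were comm2, CG10916 and RalGPS. The comm2 gene, of the commissureless family of axon guidance, was 0.50 ± 0.11 higher (adjusted p = 0.359), and RalGPS, a predicted exchange factor for Ral, was at -0.27 ± 0.063 (adjusted p = 0.359).

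MtnB and Lsp2 had the largest lower differences of single genes together with CG15199, and their groups overlapped. MtnB encodes a metallothionein, a metal-binding protein, and was at 8.39, 7.42 and 7.62 in control and at 8.09, 4.89 and 6.64 in constant 30. The difference of -1.27 ± 0.51 (adjusted p = 0.622) was -0.44 without constant 30 replicate 2 and -2.04 without constant 30 replicate 1. Lsp2, a storage protein gene of the fat body, was at 9.89, 10.52 and 8.38 in control and at 10.07, 6.68 and 8.07 in constant 30, a difference of -1.32 ± 0.78 (adjusted p = 0.731). Constant 30 replicate 2 was the lowest of the 6 arrays for both genes. CG15199 was at -1.27 ± 0.69 (adjusted p = 0.726), and all 3 genes were named here for the size of their difference after their values were seen.

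Heat shock protein genes gave no call and lay on both sides of control in the constant 30 females. Hsp26, a small heat shock protein gene, was at 13.05, 12.64 and 12.64 in control and at 11.94, 12.67 and 12.31 in constant 30, a difference of -0.47 ± 0.19 (adjusted p = 0.636). Constant 30 replicate 2 lay within the control range and replicates 1 and 3 below it, and without replicate 1 the difference was -0.28. The other 4 tested small heat shock genes were at 0.40 for CG4461, 0.38 for l(2)efl, 0.20 for CG7409 and -0.099 for Hsp27, each with overlapping groups. The list median of 0.20 became -0.078 without control replicate 1 and 0.56 without control replicate 3. The Hsp70, Hsp90, Hsp60 and co-chaperone list had 0 of 13 genes at an unadjusted p under 0.05, a median of -0.073 and a range of -0.17 to 0.31. The thermosensory channel list had 3 tested genes of 10 on the array and a median of -0.059. The stress gene list of Turandot and related genes had 2 tested genes, vir-1 at 0.18 and Fst, the Frost gene of the cold response, at 0.47, with 0 at an unadjusted p under 0.05.

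Eye, clock and brain genes were mostly above 0. Of 15 tested phototransduction genes, 14 were above 0 and 6 had an unadjusted p under 0.05, all higher, with a list median of 0.25. Over all genes, 42.6% were above 0 and 3.39% had such a p and were higher. The arrestin gene Arr2 was at 10.02, 10.08 and 10.71 in control and at 10.63, 10.84 and 10.80 in constant 30, a difference of 0.49 ± 0.15 (adjusted p = 0.428). Control replicate 3 lay within the constant 30 range and control replicates 1 and 2 lay below it. Without control replicate 1 inaC was at 0.31 and Arr1 at 0.27, and without constant 30 replicate 2 Cds was at 0.15. The protein kinase C gene inaC at 0.51, the G protein gene Gbeta76C at 0.49, Arr1 at 0.41, the diacylglycerol kinase gene rdgA at 0.32 and Cds at 0.23 also had control replicate 3 as the highest control line. Of these 6, inaC alone had groups that did not overlap. The mean of the list was 6.10, 6.12 and 6.50 in control and 6.42, 6.54 and 6.50 in constant 30. Without control replicate 3 limma called 49 of the 9023 probe sets, 45 higher and 4 lower. Of the 49, 4 were among the 15 tested genes of this list. They were Arr2 at 0.71, Arr1 at 0.68, Gbeta76C at 0.72 and rdgA at 0.48. The probe sets of rdgA disagreed, since its others were at -0.053 and 0.060 on all arrays (adjusted p = 0.839 and 0.866). Against the mean of the other 6 regimes the list median was -0.014, and the 18 arrays of those regimes were at 6.35 to 6.80. Of the clock genes, Clk, a transcription factor at the centre of the circadian clock, was at 5.24, 5.12 and 5.21 in control and at 5.45, 5.96 and 5.80 in constant 30, a difference of 0.55 ± 0.14 (adjusted p = 0.359). The control lines lay close together and below all constant 30 lines. Clk was the 1 of 10 tested clock genes at an unadjusted p under 0.05, the list median was 0.15, and the hour of sampling is not stated in what was used here. Neuronal markers had a median of 0.089 over 12 genes, with futsch at 0.28 (0.12 without control replicate 1) and Ddc at 0.38 the members at an unadjusted p under 0.05.

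All 14 tested genes of desaturases, elongases and cuticular hydrocarbon synthesis were above 0, against 42.6% of all genes, with a median of 0.20. An unadjusted p under 0.05 was reached by 3 of them, against 3.39% of all genes that were higher at such a p. These were the elongase gene bond at 0.53, the fatty acid synthase gene FASN2 at 0.47 and the desaturase gene CG9743 at 0.46, and their groups overlapped in each case. Without constant 30 replicate 1 bond was at 0.29, and without control replicate 1 CG9743 was at 0.27. The list median ran from 0.12 without constant 30 replicate 3 to 0.36 without constant 30 replicate 2. Control replicate 3 was the highest control line in all 3. Against the other 6 regimes the list median was 0.043. In fat storage and lipid transport, GLaz, a lipocalin gene related to apolipoprotein D, was at 5.60, 6.11 and 5.87 in control and at 6.4, 6.66 and 6.36 in constant 30, a difference of 0.61 ± 0.18 (adjusted p = 0.399). All constant 30 lines were above all control lines. The gene mdy, which encodes a diacylglycerol acyltransferase of fat synthesis, was at 0.31 (adjusted p = 0.528), its other probe set was at 0.0041 (adjusted p = 0.997), and the list of 14 had a median of 0.058, with 10 genes above and 4 below 0.

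Sugar and energy metabolism lay at or slightly below control. Glycolysis genes had a median of -0.13, with 11 of 13 below 0, Pgi at -0.13 (adjusted p = 0.71) and Pepck1, which acts in the making of glucose, at 0.36 (adjusted p = 0.711), or at 0.20 without control replicate 1. The tricarboxylic acid cycle list was at -0.026 over 13 genes, with Mdh1 at -0.14 its 1 member at an unadjusted p under 0.05. The respiratory chain list was at -0.026 over 35 genes and the maltase and amylase list at -0.073 over 13, each with 0 such members. Over all genes 57.4% were below 0 and 3.16% had such a p and were lower. In insulin and TOR signalling, REPTOR-BP, a partner of a transcription factor that acts when TOR is low, was at 7.70, 7.57 and 7.82 in control and at 8.05, 8.09 and 8.14 in constant 30, a difference of 0.40 ± 0.093 (adjusted p = 0.359). The groups did not overlap. Without control replicate 3 REPTOR-BP was at 0.46 and called (adjusted p = 0.0482), and without control replicate 2 it was at 0.33. Ilp7, an insulin-like peptide gene, was at -0.29 (adjusted p = 0.496), and the list median over 18 genes was -0.0027. Vacuolar ATPase and water or ion transport genes had a median of 0.048 over 27, with 18 above and 9 below 0. Of these, 4 were higher and 1 was lower at an unadjusted p under 0.05, against 3.39% and 3.16% of all genes. Muscle genes had a median of 0.17 over 24, with Tm2, a tropomyosin gene, at 0.49 (adjusted p = 0.671), and a mean of 8.69, 8.85 and 9.29 in control and 8.64, 9.15 and 9.32 in constant 30, where control replicate 3 was again the highest control line. This list's median came to 0.017 when control replicate 1 was left out and to 0.35 when constant 30 replicate 1 was.

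Reproductive genes were close to control. The 17 eggshell genes had a median of -0.050, with 0 at an unadjusted p under 0.05. Their mean was 11.31, 11.08 and 10.96 in control and 11.67, 10.58 and 11.20 in constant 30, so that constant 30 held both the highest and the lowest line, and the median was -0.29 without constant 30 replicate 1 and 0.19 without constant 30 replicate 2. The 4 genes of yolk and yolk uptake had a median of -0.084, and the 29 germ line genes one of -0.058, with CycB3, a cyclin gene, at -0.18 (adjusted p = 0.571) and BicC at -0.26 (adjusted p = 0.71). Cuticle proteins had a median of -0.082 over 29 tested genes of 92 on the array, with 25 below 0 and TwdlD at -0.24 (adjusted p = 0.605) the 1 member at an unadjusted p under 0.05. Without control replicate 3 TwdlD was at -0.39 and called (adjusted p = 0.0378), and without control replicate 1 it was at -0.15. Histone and chromatin genes had a median of -0.062 over 15, with the histone deacetylase gene HDAC1 at -0.28 (adjusted p = 0.496). Cytosolic ribosomal proteins were at 0.036 over 33, with RpL32 at 0.11 (adjusted p = 0.671), mitochondrial ribosomal proteins at -0.0098 over 64 and the proteasome at -0.050 over 28. Lysozymes were at 0.097 over 7 and antioxidant enzymes at -0.0059 over 15, each with 0 genes at an unadjusted p under 0.05. Juvenile hormone and ecdysone genes were at 0.068 over 13, with the nuclear receptor gene ftz-f1 at 0.27 and the P450 gene Cyp18a1 at 0.25 past that p. UDP-glycosyltransferases were at -0.014 over 16, splicing factors at -0.035 over 18, larval serum proteins at 0.081 over 5 and metallothioneins with copper transport at 0.036 over 7. Tested testis markers had a median of -0.12 over 6, and male accessory gland and dosage compensation genes one of -0.14 over 3. The latter were msl-2 of dosage compensation and the accessory gland genes Acp26Aa and Acp32CD. These accessory gland genes were near the filter of 4, at 3.95 to 4.20 and 3.97 to 4.29. Medians of 6 of the 40 lists, all within 0.024 of 0, changed sign when the arrays were centred or quantile normalized.

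**Figure D4:**
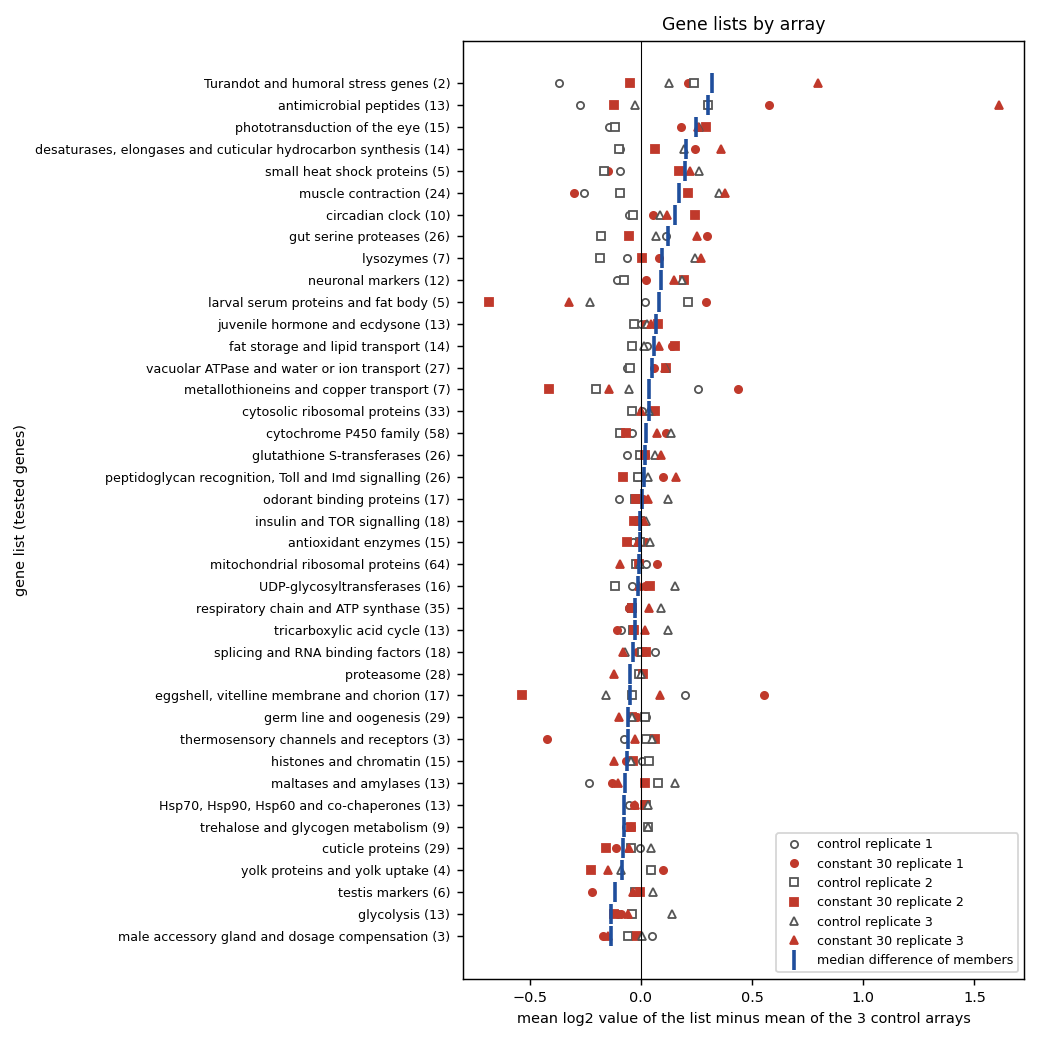
Mean log2 value of each gene list on each of the 6 arrays minus its mean over the 3 control arrays (x axis), for 40 lists (y axis, number of tested genes in brackets), with red symbols for constant 30, open symbols for control and a blue bar at the median difference of the members. The antimicrobial list had the widest spread between constant 30 lines, at 7.38 to 9.11 before centring, and in the phototransduction list control replicate 3 lay among the constant 30 arrays.

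The other 6 regimes gave a comparison that used no control array. It asked where constant 30 differed from the mean of lines selected for heat, cold, longevity, knock-down, starvation and desiccation, which shares the constant 30 arrays with the comparison above. Limma called 0 of 9023 probe sets (0%), with a smallest adjusted p of 0.0692, and 520 had an unadjusted p under 0.05 (5.76%). CG10916 had that smallest p. It was at 6.55, 6.81 and 6.65 in control and at 7.05, 7.15 and 7.28 in constant 30, while the 18 arrays of the other regimes ran from 6.32 to 6.92 with a median of 6.64. It was the 1 probe set (0.0111%) whose constant 30 lines lay above each of the other 21 arrays. Its difference was 0.49 ± 0.11 from control (adjusted p = 0.359) and 0.51 ± 0.085 from the other regimes (adjusted p = 0.0692). With limma's array weights it was called against those regimes, together with ena (adjusted p = 0.0399 for both). Without constant 30 replicate 1 the difference of CG10916 was 0.57 (adjusted p = 0.028), and without constant 30 replicate 3 it was 0.45.

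The constant 30 lines lay below each of the other 21 arrays for 3 probe sets (0.0332%). These were CG17721, which was at -0.48 ± 0.10 from the other regimes (adjusted p = 0.218), ATP8B, a gene of the lipid-transporting P4-type ATPases, and CG4306. ATP8B was at 4.39, 4.33 and 4.40 in control and at 4.19, 3.98 and 4.22 in constant 30, and its difference from the other regimes was -0.29 ± 0.060 (adjusted p = 0.218). All of its values were near the filter of 4. Obp56a was as far below the other regimes as below control, at -0.56 ± 0.13 (adjusted p = 0.364).

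Set side by side, the named genes fell into different positions among the 8 groups. For CG17192 the difference was 1.03 from control and 0.90 from the other regimes, for CG8562 it was 0.67 and 0.55, for GLaz 0.61 and 0.49, and for Drs 0.67 and 0.38. In these genes constant 30 lay above the mean of the other regimes too. The adjusted p were 0.644, 0.694, 0.588 and 0.588, so that no call resulted. That mean covers knock-down selected lines, whose group means were near those of constant 30 in several genes. They were 7.60 against 7.84 for CG17192, 7.60 against 7.83 for CG8562 and 9.24 against 9.32 for CG6295. For CG8560 they were 8.51 against 8.55, for CG8773 5.61 against 5.70 and for GstE5 5.63 against 5.55. Drs lay further apart, at 11.53 against 11.89. For Ctr1B the differences were 0.84 from control and -0.0048 from the other regimes, for CG17752 0.81 and -0.047, for CG13159 -0.90 and -0.13, and for twin -0.56 and -0.071. In those genes constant 30 lay close to the mean of the other regimes. Whether the 2 differences of a gene were themselves different was not tested.

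**Figure D5:**
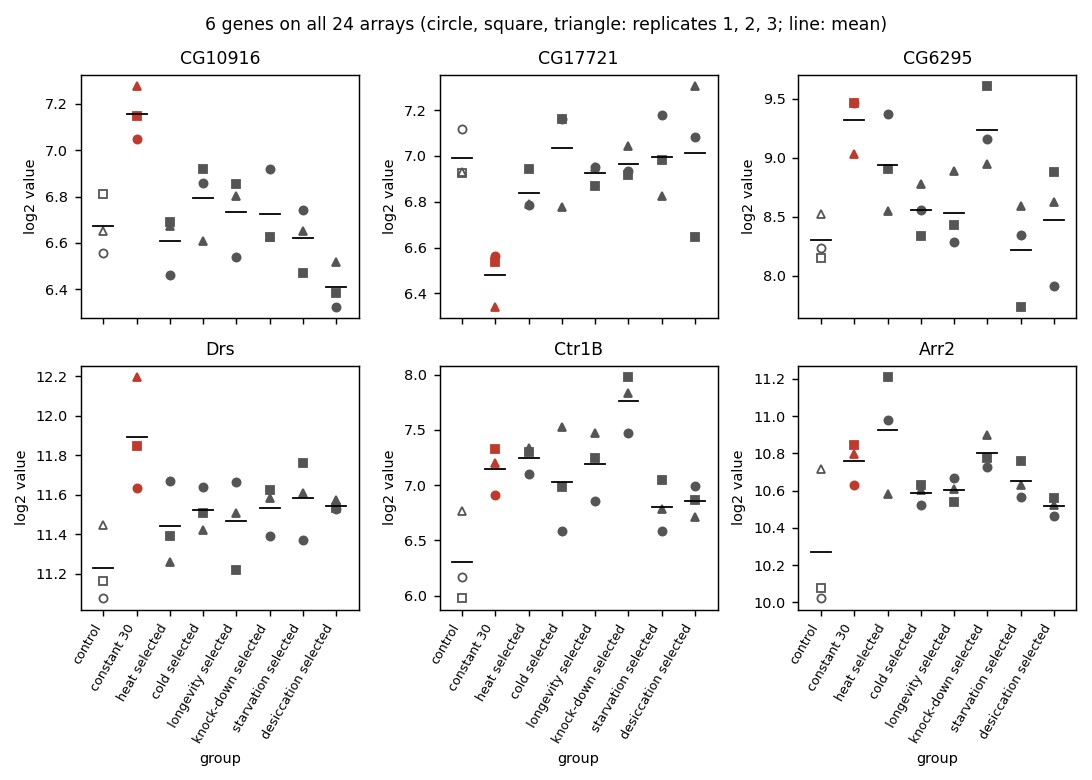
Log2 value (y axis) on all 24 arrays by group (x axis) for CG10916, CG17721, CG6295, Drs, Ctr1B and Arr2, with circles, squares and triangles for replicates 1, 2 and 3, a line at each group's mean and constant 30 in red. CG10916 is above and CG17721 below the 21 other arrays in constant 30, while for Ctr1B and Arr2 the control mean is the lowest and constant 30 lies among the other regimes.

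Heat selected lines are the other group of the series whose label concerns high temperature. Limma called 33 probe sets between constant 30 and heat selected (0.366%), 15 higher and 18 lower in constant 30 (21 and 14 with each array centred on its median), and 2088 had an unadjusted p under 0.05. Without heat selected replicate 2, whose 3' to 5' difference of 1.34 was the lowest of the 24 arrays, 0 were called, and without heat selected replicate 3 there were 430. With that RNA quality measure as a covariate, an alternative added after seeing the data, 0 were called. CG15412 had the smallest p and was at 4.43, 4.58 and 4.57 in heat selected and at 3.97, 4.03 and 4.03 in constant 30. The constant 30 lines were within the control range, and the difference from heat selected was -0.52 ± 0.072 (adjusted p = 0.00608). All values of CG15412 outside heat selected were near the filter of 4. The GATA factor gene srp, which acts in blood cells and the fat body, was at 6.73, 6.17 and 6.61 in heat selected and at 7.93, 7.39 and 7.69 in constant 30, and it was 1.17 ± 0.18 higher in constant 30 (adjusted p = 0.0138). CG10916 was 0.55 ± 0.11 higher than in heat selected (adjusted p = 0.0358).

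Several lists had medians far from 0 against heat selected. The maltase and amylase list had the largest lower median, -0.56, with 12 of 13 genes below 0, 8 of them at an unadjusted p under 0.05 and 0 called. The respiratory chain list was at -0.36 against heat selected, with 34 of 35 genes below 0, 31 of them at an unadjusted p under 0.05, and 1 called. The tricarboxylic acid cycle list was at -0.39 with 9 of 13 lower at such a p and 1 called, and the muscle list at -0.54 with 20 of 24 and 0 called. The small heat shock protein list was at -0.43, with 5 of 5 genes below 0, 2 of them at such a p and 0 called. The eggshell list lay the other way at 0.94, with 17 of 17 genes above 0, 9 of them at an unadjusted p under 0.05 and 0 called. Yolk and yolk uptake genes had a median of 0.12, with 1 higher and 1 lower at such a p, and germ line genes had one of 0.047, with 17 above and 12 below 0. Over all probe sets 797 were higher and 1291 lower at that p. Without heat selected replicate 2, an alternative added after seeing the data, the medians were -0.29 for the respiratory chain, -0.33 for the tricarboxylic acid cycle, -0.49 for muscle, -0.59 for maltases and amylases and 0.80 for the eggshell. The median of the small heat shock protein list was -0.43 in that alternative.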

How the data were processed

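RNA of whole females was measured on 24 Affymetrix arrays. The deposited values are log2 expression values per probe set, made by the authors with GCRMA per the submitters' processing notes. The version and settings of GCRMA, and whether it was run on all arrays at once, are not given in the sources. No normalization was added, and array values have no counting depth, so the number of arrays limits the precision. Of 14010 deposited probe sets, 44 array controls were left out. Among the 9023 tested, 8068 named 1 gene, 222 several and 733 none, per the platform annotation with symbols updated from the gene table of assembly Release 6, used here for names and neighbours alone.

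Group means were fitted over all 24 arrays by lmFit and eBayes of limma 3.58.1 (R 4.3.3), with 16 residual degrees of freedom and 3.56 from the prior. Two-sided p-values were adjusted in each comparison separately (Benjamini and Hochberg). Errors are standard errors of the fit, pooled over all 8 groups, so they can understate the spread where the constant 30 lines vary more than other groups. For Def the SD was 1.81 among constant 30 lines and 0.30 among control lines, while the SE of the fit was 0.56. Genes were named by rule among single-gene probe sets. The rule took the 12 largest differences each way and the 5 smallest p, both with an unadjusted p under 0.05 and no overlap. It took up to 8 probe sets called in any comparison, by their smallest p over the comparisons, and, overlapping or not, up to 4 members per list with an unadjusted p under 0.05, plus members needed for a list's count. Where a gene had several probe sets, the one with the highest mean stood for it. The members and the 40 lists were chosen with earlier results of these data known. Alternatives were the filter, normalization, moderation, array weights, a replicate block, the compared groups alone, and each array left out. Same-numbered arrays correlated at 0.154, -0.099 and 0.110 in their deviations from the group means, so the numbers were not taken to pair the lines.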

Additional observations from a re-analysis of the deposited data

Results flagged for a closer look

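Limma called 33 probe sets between constant 30 and heat selected, of which 27 named 1 gene. The 8 single genes given here had the smallest p in any of the comparisons with control, with the other 6 regimes or with heat selected. In these 8 the constant 30 lines and the heat selected lines differed in their difference from control by limma's test of that difference itself, which here equals constant 30 minus heat selected. The values on the log2 scale, with adjusted p, were 1.166 for the GATA factor gene srp (0.0138), 0.6417 for the kinase gene Cdk5 (0.0138), 0.589 for the nuclear receptor gene ftz-f1 (0.0321) and 0.5516 for CG10916 (0.0358). They were -0.5185 for CG15412 (0.00608), -0.4496 for CG8768 (0.0321), -0.6464 for the cuticle protein gene Cpr47Ef (0.0321) and -1.033 for CG14757 (0.0321). The other tested probe set of CG8768, with a mean of 3.94 over all arrays, was not called. Its difference from the other 6 regimes was -0.035, against -0.18 for the called one. The constant 30 and control values of srp, CG15412, CG8768 and CG14757 overlapped, and those of CG15412 were near the filter of 4. The calls of all 8 were lost with the RNA quality covariate, in the fit of the compared groups alone and without heat selected replicate 2. The differences kept their direction. Without heat selected replicate 2 they were 0.9994 for srp, 0.5172 for Cdk5, 0.5302 for ftz-f1, 0.5926 for CG10916, -0.4895 for CG15412, -0.4058 for CG8768, -0.5474 for Cpr47Ef and -0.9989 for CG14757, with adjusted p from 0.0811 to 0.192.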

How the results depend on the processing

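Constant 30 against control gave 0 called probe sets under every alternative of filter, normalization, moderation, weights, block, samples and RNA quality covariate, and 0 to 49 with each array left out in turn (49 without control replicate 3, 3 without constant 30 replicate 1). The count at an unadjusted p under 0.05 ran from 421 to 967 with arrays left out, against 630. The replicate block gave 0 called and 737 at an unadjusted p under 0.05. Against the other 6 regimes, array weights gave 2 and leaving out arrays gave 0 to 9, highest without constant 30 replicate 1. Against heat selected, 33 calls became 104 with the filter at 6, 71 with quantile normalization, 141 with trend and robust moderation, 13 with array weights, 218 with the replicate block, 2 from the compared groups alone and 0 with the RNA quality covariate, and 0 to 430 with arrays left out. The cause was not tested. Of the named gene values under alternatives, 1348 kept their direction and their side of the threshold, 17 passed it newly, 49 no longer passed it and 0 changed sign. Only the 8 genes called against heat selected could lose a call, and all 49 lost calls were theirs. The other named values were uncalled from the start, so the 1348 do not measure how stable the calls were. Of the list medians, 582 moved by less than the spread between lines and 16 by more. With 3 lines a group the median SE was 0.097. The differences of 1.02 ± 0.26 for CG6295 and 1.03 ± 0.38 for CG17192 from control were not called. Their SE lay above that median, so differences of this size could go unresolved in genes with a wide spread between lines.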
